A study of Mus musculus with 4 samples.

Results

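Open chromatin at 10 genes of bone morphogenetic protein (BMP) signaling was examined in P0 mouse hippocampi. The hippocampi came from control animals and from animals in which the CxxC zinc finger of KDM2B is deleted in the Emx1 lineage. The genes were taken by name out of 21938 protein-coding genes: the ligands Bmp2, Bmp4, Bmp6 and Bmp7, the type I receptors Bmpr1a and Bmpr1b, and the inhibitor of DNA binding (ID) genes Id1, Id2, Id3 and Id4. A peak of ATAC-seq, which marks open chromatin by Tn5 transposase insertion, was assigned to a promoter when its summit lay within 2 kb of a transcription start site (TSS). Peaks in each gene body and 50 kb on either side were collected as the locus of the gene.

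Nuclei were isolated from P0 hippocampi of 2 cKO and 2 Ctrl libraries. The genotype of cKO is Kdm2b Emx1-ΔCxxC, in which Emx1-Cre, active in progenitors of the dorsal telencephalon, deletes a floxed exon of Kdm2b and with it the CxxC zinc finger, through which KDM2B binds CpG islands (CGIs). Cells of the hippocampus outside the Emx1 lineage (vessels, microglia, meninges) keep the exon. Ctrl animals carry 1 or both floxed alleles (Kdm2b fl/+ or Kdm2b fl/fl), and the labels do not say which library has which genotype. The labels name neural progenitor cells as the source but hippocampus in the titles and protocol. Where nothing says that replicates are separate animals, p-values measure only the spread between these libraries.

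BMP ligands are secreted dimers that bind a complex of type I and type II receptors. The type I receptor then phosphorylates SMAD1, SMAD5 or SMAD9, which enter the nucleus with SMAD4 and bind GC-rich sites and GTCT elements. The ID genes are the best known direct targets, and ID proteins bind E proteins and so keep basic helix-loop-helix factors off DNA. In the embryonic forebrain, BMPs are made by the cortical hem and choroid plexus beside the hippocampal primordium, and ID proteins are known for holding back neuronal differentiation.

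The libraries differed in depth and quality within each group. Peak numbers were 21404 and 44535 in cKO replicates 1 and 2, and 46389 and 7037 in Ctrl replicates 1 and 2. By an estimate from the lists, the mean genome was covered by 1.62 to 2.07 fragments in 3 libraries and by 3.46 in Ctrl replicate 2, whose list stood apart. In that list, 60.6% of the peaks lay mostly in repeat-masked sequence, against 5.37% to 14.7% in the others. Differences of totals between the groups are therefore given with and without Ctrl replicate 2. So are the differences of those genes of the set that had a promoter peak in every other list. Promoter peaks were listed at 4, 8 and 7 of 8 forebrain and hippocampus marker genes in cKO replicate 1, cKO replicate 2 and Ctrl replicate 1, and at 0 of 8 in Ctrl replicate 2. None of the 5 microglia markers had a promoter peak in any list. Of 5 choroid plexus markers, only Ttr had one, in the same 3 lists, and Folr1, Kl, Otx2 and Kcne2 had none. Among the other cell types that could be present, meninges and fibroblast markers had promoter peaks at 1, 2, 3 and 0 of 5 genes (cKO replicates 1 and 2, then Ctrl replicates 1 and 2) and endothelial markers at 1, 0, 1 and 0 of 5. Their part in the results was not tested.

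The promoter sequences at which the data bear are printed here, from RefSeq (GRCm38.p6), 5′ to 3′ on the strand of the gene. They show an open ID promoter (Id4), a ligand promoter with no peak in any list (Bmp4), and the stretches of the Bmpr1a and Id2 promoters upstream of annotated untranslated exons. Capitals mark GGCGCC, a GC-rich SMAD site. The Id4 sequence is chr13:48260866-48261115, plus strand, and holds the summits of its peaks in 3 lists. The Bmp4 sequence is chr14:46390670-46390919, minus strand. The Bmpr1a stretch is chr14:34502688-34502796 and the Id2 stretch chr12:25096254-25096342, both on the minus strand. Both stretches lie within the annotated span of their gene, and neither holds a peak summit. The Id2 stretch is upstream of the TSS at chr12:25096092 but downstream of another Id2 TSS, at chr12:25097140, and so inside the transcript that starts there.
Id4: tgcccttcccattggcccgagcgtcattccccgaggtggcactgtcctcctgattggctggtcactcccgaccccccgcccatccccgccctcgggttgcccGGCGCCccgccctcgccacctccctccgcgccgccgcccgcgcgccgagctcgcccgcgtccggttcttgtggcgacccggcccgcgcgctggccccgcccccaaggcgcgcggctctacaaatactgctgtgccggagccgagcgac
Bmp4: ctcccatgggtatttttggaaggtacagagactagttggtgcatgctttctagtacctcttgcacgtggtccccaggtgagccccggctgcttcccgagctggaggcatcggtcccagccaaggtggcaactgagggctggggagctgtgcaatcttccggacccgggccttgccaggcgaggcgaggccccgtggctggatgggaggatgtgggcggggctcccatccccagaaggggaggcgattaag
Bmpr1a: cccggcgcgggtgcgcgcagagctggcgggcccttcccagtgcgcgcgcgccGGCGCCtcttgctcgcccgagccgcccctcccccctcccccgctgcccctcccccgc
Id2: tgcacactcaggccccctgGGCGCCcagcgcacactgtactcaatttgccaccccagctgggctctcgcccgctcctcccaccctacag

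Promoter peaks were found at 4 and 7 of the 10 genes in cKO replicates 1 and 2, and at 8 and 0 in Ctrl replicates 1 and 2. Over all protein-coding genes the shares with a promoter peak were 40.3%, 55.9%, 58% and 8.27% in the same order. A CGI, computed from the sequence, overlapped the promoters of 9 of the 10 genes, Bmp4 being the exception. The corresponding shares over 12190 protein-coding CGI genes were 63.8%, 85.2%, 87.4% and 13.6%. The mean per group was 5.5 genes in cKO and 4 in Ctrl, a difference that turned over without Ctrl replicate 2 (5.5 against 8). The number of genes followed the length of the list in the 3 larger lists. In whole tissue, fewer cells with an open site and less opening per cell cannot be told apart. With each list reduced to its 7037 strongest peaks, the counts were 3, 2, 3 and 0, beside 21%, 23.2%, 26.1% and 8.27% of all protein-coding genes.

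Peak strength was compared between lists as a promoter percentile. For each gene it gives the percentage of all protein-coding genes that had a weaker best promoter peak (smaller −log10 p) or none in the same list, and it is 0 for genes with no promoter peak. Because genes with no peak share the value 0, percentiles of genes with a peak began at 59.7 and 44.1 in the cKO replicates and at 42.0 and 91.7 in the Ctrl replicates. For the 10 genes, the mean percentile was 33.5 and 47.8 in the cKO replicates and 52.0 and 0 in the Ctrl replicates. The medians were 0, 60.3, 55.9 and 0, beside 68.7, 69.0, 69.1 and 0 over CGI genes and 0, 50.0, 49.9 and 0 over all protein-coding genes. As a set, the 10 genes thus lay below the middle of CGI genes in each of the 3 larger lists. The mean was 14.6 higher in cKO than in Ctrl with all libraries and 11.4 lower without Ctrl replicate 2 (a difference of -11.4). It was 8.81 with equal-size lists and 1.87 when genes lacking a peak took the middle of the ranks they share (52.9 in cKO against 51.1 in Ctrl).

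**Figure D1:**
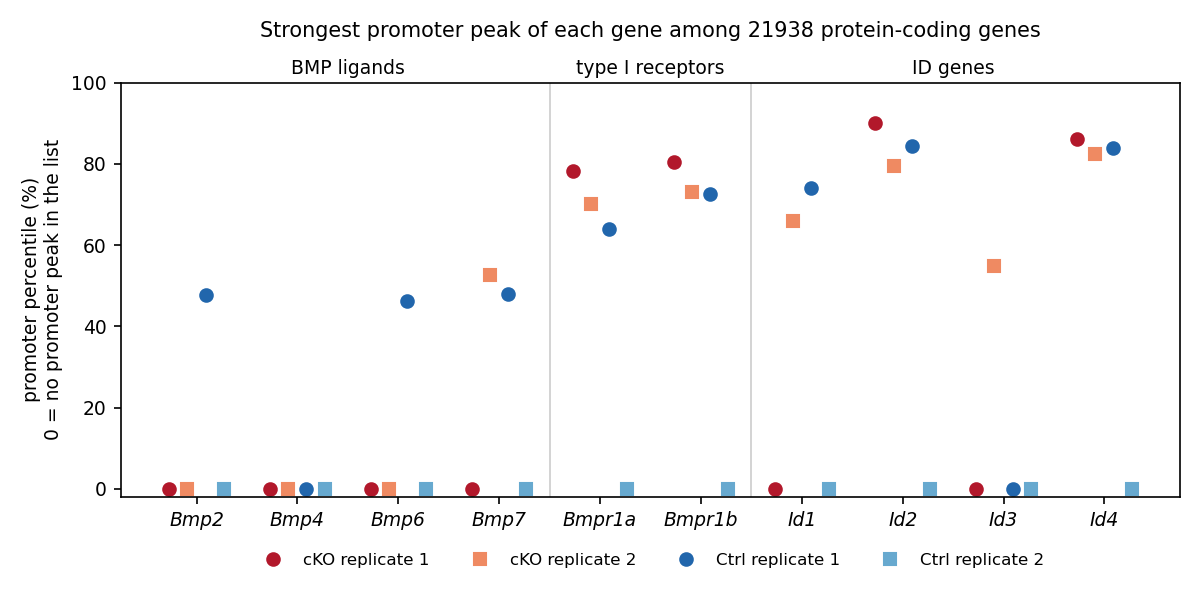
Promoter percentile (vertical axis, percent) of each of the 10 genes in each of the 4 libraries (points). Ctrl replicate 2 sits at 0 for all 10 genes, and Id2 and Id4 lie between 79.5 and 90.1 in the other three libraries.

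The ligand genes had promoter peaks in 0 and 1 of 4 cases in cKO replicates 1 and 2 and in 3 and 0 in Ctrl replicates 1 and 2. Where a ligand promoter had a peak, its percentile was below those of the receptor and ID promoters with a peak in the same list, although Id3 had no peak in Ctrl replicate 1. Bmp2, a ligand of the BMP2/4 subgroup (chr2:133552159-133562885, plus strand), had 1 promoter peak, in Ctrl replicate 1, with 13 fragments at its summit 193 bp after the TSS and rank 31871 of 46389. No other peak was found in the whole Bmp2 locus in any list. Bmp6, a ligand of the BMP5/6/7 subgroup (chr13:38345107-38500302, plus strand), likewise had a single promoter peak in Ctrl replicate 1, with 12 fragments 4 bp before the TSS. A promoter peak in Ctrl replicate 1 alone, the pattern of these 2 genes, was present at 4% of CGI genes, and both peaks ranked in the weaker part of that list. Bmp7 (chr2:172868012-172940321, minus strand) had a promoter peak in cKO replicate 2 with 20 fragments and in Ctrl replicate 1 with 16, at 76 bp before and 50 bp after the TSS. The ligand percentiles where a peak was present ran from 46.2 for Bmp6 and 47.6 for Bmp2 to 47.9 (Ctrl replicate 1) and 52.5 (cKO replicate 2) for Bmp7. The lowest values that these lists allow were 42.0 in Ctrl replicate 1 and 44.1 in cKO replicate 2. The medians over all protein-coding genes were 49.9 and 50.0 in the same order.

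Bmp4, a ligand made by the cortical hem and choroid plexus (chr14:46383520-46390669, minus strand), lacked a promoter peak in every one of the 4 lists. The printed Bmp4 window, with its 50 bases after the start, had a GC content of 64.0% and 12 CG dinucleotides, more than 60.4% of all RefSeq promoter windows. Bmp4 is not a CGI gene, and a promoter peak was absent from all lists for 76.7% of the 9748 protein-coding genes other than CGI genes and for 39.8% of all protein-coding genes. The one peak region of its locus, overlapping a CGI within the Bmp4 gene body, lay 2944 bp after the nearest TSS. The region is at chr14:46387091-46387634, in an exon of the non-coding gene Gm15222. It was listed in cKO replicate 2 with 10 fragments and in Ctrl replicate 1 with 9, ranks 43532 of 44535 and 45681 of 46389. Those are close to the last peaks of both lists. When the comprehensive set of GENCODE transcripts was used, chosen after seeing the data, this region counted as a Bmp4 promoter peak, with percentiles of 42.9 and 40.5. The CGI status of Bmp4 rests on the basic GENCODE set and was not recomputed with the comprehensive one.

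Both type I receptor genes had promoter peaks in each list but that of Ctrl replicate 2, a pattern found at 49.9% of CGI genes. Bmpr1a encodes ALK3 (chr14:34410734-34503341, minus strand). Its promoter peak held 22 and 34 fragments in cKO replicates 1 and 2 and 31 in Ctrl replicate 1, with summits 170, 168 and 329 bp before the TSS. The percentiles were 78.2 and 70.0 in cKO, above 63.9 and 0 in Ctrl. A further peak of 15 fragments, 693 bp after the TSS, was present in cKO replicate 2 alone. Near the summits the sequence was rich in CG. The 401 bases centred on the summit in cKO replicate 2 held 60 CG, more than 97.9% of the promoter peaks of that list. Those centred on the summit in Ctrl replicate 1 held 45 CG, more than 81.6% of the promoter peaks of that list.

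Bmpr1b encodes ALK6 (chr3:141837136-142169425, minus strand) and has several TSSs. Its strongest promoter peak was at chr3:141932789-141933672 in an intron, 1538 to 1596 bp upstream of the internal TSS of the transcript Bmpr1b-204. The summit held 27 and 41 fragments in cKO replicates 1 and 2 and 43 in Ctrl replicate 1. The percentiles were 80.5 and 73.0 in cKO and 72.5 and 0 in Ctrl. The same 3 lists had a weaker peak at the distal TSS, which lies in a CGI, with 14, 12 and 15 fragments. The intronic peak was not over a CGI, and the 401 bases at its summit held 3 CG dinucleotides in each list, against a median of 32 to 34 over promoter peaks. With a promoter of 1 kb only the weaker peak at the CGI remained, and the percentiles were then 67.5 and 49.9 in cKO and 51.2 and 0 in Ctrl, which overlap.

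At both receptor genes, the 2 cKO percentiles lay above the 2 Ctrl percentiles. Among 13196 protein-coding genes that 1 or more lists marked at the promoter, this order was found at 20.5% and the reverse order at 2.8%. With Ctrl replicate 2 at 0 for all 10 genes, none of them could have both cKO values below both Ctrl values. Without that library, 2 genes had both cKO values above the remaining Ctrl value (Bmpr1a and Bmpr1b) and 3 had both below it (Bmp2, Bmp6 and Id1), beside shares of 23.8% and 36.6% over 13176 genes. An exact permutation test (two-sided, 6 assignments of the libraries) gave p = 0.333 for Bmpr1a and for Bmpr1b, the smallest it can give. The adjusted p (Benjamini-Hochberg over the 13196 genes) was 1 for every gene in this exact test, and 0 genes had an unadjusted p under 0.05. The same exact test gave p = 0.667 for Id2 and Id4 and p = 1 for Bmp2, Bmp6, Bmp7, Id1 and Id3, and Bmp4 could not be tested. With equal-size lists the order was lost at both receptor genes. Bmpr1a then had no promoter peak in any list, and Bmpr1b had one in cKO replicate 1 alone (percentile 80.5). Without Ctrl replicate 2, the differences shrank from 42.2 to 10.2 for Bmpr1a and from 40.5 to 4.22 for Bmpr1b. The remaining gap between cKO replicate 2 and Ctrl replicate 1 was 70.0 against 63.9 for Bmpr1a and 73.0 against 72.5 for Bmpr1b. At each gene it is smaller than the gap between the cKO replicates.

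The ID genes Id2 and Id4 held the strongest promoter peaks of the set in each of the 3 larger lists. Id2 (chr12:25093799-25097140, minus strand), an ID gene expressed widely in the nervous system, had 39 and 62 fragments at its promoter summit in cKO replicates 1 and 2 and 76 in Ctrl replicate 1. The summits lay 74 to 109 bp before the TSS, within a CGI of 613 bp. The percentiles were 90.1 and 79.5 in cKO and 84.4 and 0 in Ctrl, so that Ctrl replicate 1 fell between the cKO replicates. Id4 (chr13:48261228-48266026, plus strand), which has a role in neural progenitor proliferation, had 30, 53 and 63 fragments in the same order. The 3 Id4 summits lay 318 to 325 bp before the TSS, inside the printed sequence. Its percentiles of 86.0, 82.5 and 83.8 were also the least spread of the 4 genes with a promoter peak in each of the 3 larger lists, and Ctrl replicate 1 again fell between the cKO replicates. The difference of cKO and Ctrl was 42.6 percentile points for Id2 and 42.4 for Id4 with all libraries. Without Ctrl replicate 2 it was 0.42 for Id2 and 0.48 for Id4.

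Id1 and Id3 were less regular. Id1 (chr2:152736251-152737410, plus strand) had no peak at its TSS in any list. Its promoter peak lay upstream, with a summit 1053 bp before the TSS and 32 fragments in cKO replicate 2, and 1050 bp before the TSS and 47 fragments in Ctrl replicate 1. Both summits were over a CGI of 221 bp. No peak was listed there in cKO replicate 1, where a summit at the mean background needed 9 fragments, 4.34 times the mean depth. A higher local background needs more fragments. At the Id1 peak it was 3.55 in cKO replicate 2 (mean 1.81) and 4.30 in Ctrl replicate 1 (mean 1.62). The Id1 percentiles were 0 and 65.8 in cKO and 74.2 and 0 in Ctrl, so that the spread within each group exceeded the difference of the groups. Peaks in cKO replicate 2 and Ctrl replicate 1 but in neither other list, the pattern of Id1 and Bmp7, were present at 19.7% of CGI genes. Id3 (chr4:136143497-136145755, plus strand) had a promoter peak in cKO replicate 2 alone, with 22 fragments and a percentile of 54.8. Such a peak was present at 1.95% of CGI genes. Its summit was 307 bp after the GENCODE TSS but 18 bp before the RefSeq start. The 30 bases around the summit (chr4:136143789-136143818, plus strand) show where this only Id3 promoter peak lies.
Id3: actctataagagtcggccgctgcaggcgtg

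A promoter peak in all 4 lists, as seen at 13.5% of CGI genes, was found at none of the 10 genes. In Ctrl replicate 2 a summit at the mean background entered the list from 12 fragments, 3.46 times the mean depth, and the Id2 and Id4 promoters, at 14.5 to 46.9 times the mean depth in the other lists, did not enter it. A higher local background needs more fragments. In Ctrl replicate 1 it was 7.27 at Id2 and 4.58 at Id4, against a mean of 1.62. Depth, repeat content and library quality move together with Ctrl replicate 2, and their part in its missing peaks was not tested.

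To compare peaks on a scale other than rank, the fragments at a summit were divided by the mean depth of the library (scaled depth). In Ctrl replicate 1 the scaled depth was 46.9 at Id2 (95% Poisson interval 36.9 to 58.6), 38.8 at Id4 (29.8 to 49.7), 29.0 at Id1 (21.3 to 38.5), 26.5 at Bmpr1b (19.2 to 35.7) and 19.1 at Bmpr1a (13.0 to 27.1). The ligands followed with 9.86 at Bmp7, 8.01 at Bmp2 and 7.40 at Bmp6. All neighbours in this order had overlapping intervals, also Bmpr1a and Bmp7 (5.64 to 16.0). In cKO replicate 2 the order was Id2 (34.3), Id4 (29.3), Bmpr1b (22.7), Bmpr1a (18.8), Id1 (17.7), Id3 (12.2) and Bmp7 (11.1). Id1 thus ranked behind both receptors in this library and ahead of both in Ctrl replicate 1, within overlapping intervals. In cKO replicate 1 the values were 18.8 at Id2, 14.5 at Id4, 13.0 at Bmpr1b and 10.6 at Bmpr1a. Intervals cover counting error only.

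**Figure D2:**
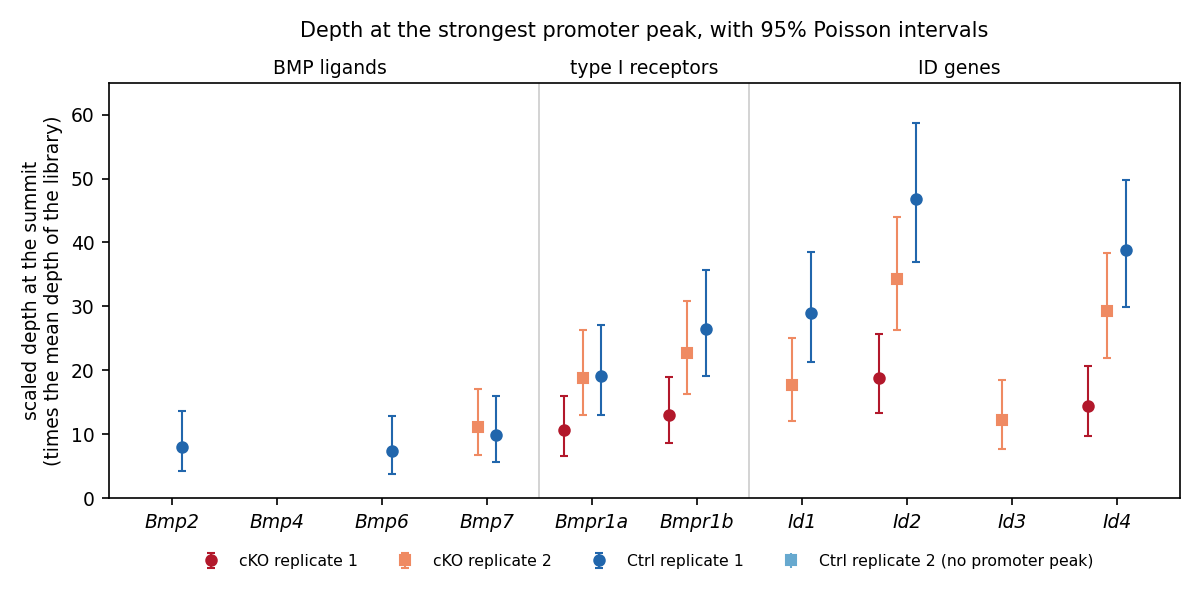
Scaled depth (vertical axis, times the mean depth of the library) at the strongest promoter peak of each gene, 1 point per library with a peak and bars for the 95% Poisson interval. The ID genes Id2 and Id4 reach 46.9 and 38.8 in Ctrl replicate 1, and the ligands stay at or below 11.1.

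Scaled depth differed between libraries over all genes, so the 10 genes were read against that shift. Over 11826 protein-coding genes that both lists marked at the promoter, the median ratio of cKO replicate 2 to Ctrl replicate 1 was 0.842, and the middle 80% ran from 0.638 to 1.11. The 6 genes of the set with a peak in both had ratios of 1.12 (Bmp7), 0.985 (Bmpr1a), 0.856 (Bmpr1b), 0.755 (Id4), 0.733 (Id2) and 0.611 (Id1). The value for Bmp7 lay just above that range and the value for Id1 just under it. Their intervals, 0.553 to 2.32 for Bmp7 and 0.378 to 0.979 for Id1, include the median of all genes. The median ratio of cKO replicate 1 to Ctrl replicate 1 was 0.370 over 8782 genes, and the middle 80% ran from 0.275 to 0.533. Against it stood 0.555 at Bmpr1a (interval 0.306 to 0.990), 0.491 at Bmpr1b, 0.401 at Id2 and 0.372 at Id4, and each interval included the median of all genes. The value for Bmpr1a lay just above the middle 80%. Between the cKO replicates the ratio of replicate 1 to replicate 2 was 0.442 over all genes and 0.493 to 0.574 at Id4, Id2, Bmpr1a and Bmpr1b.

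**Figure D3:**
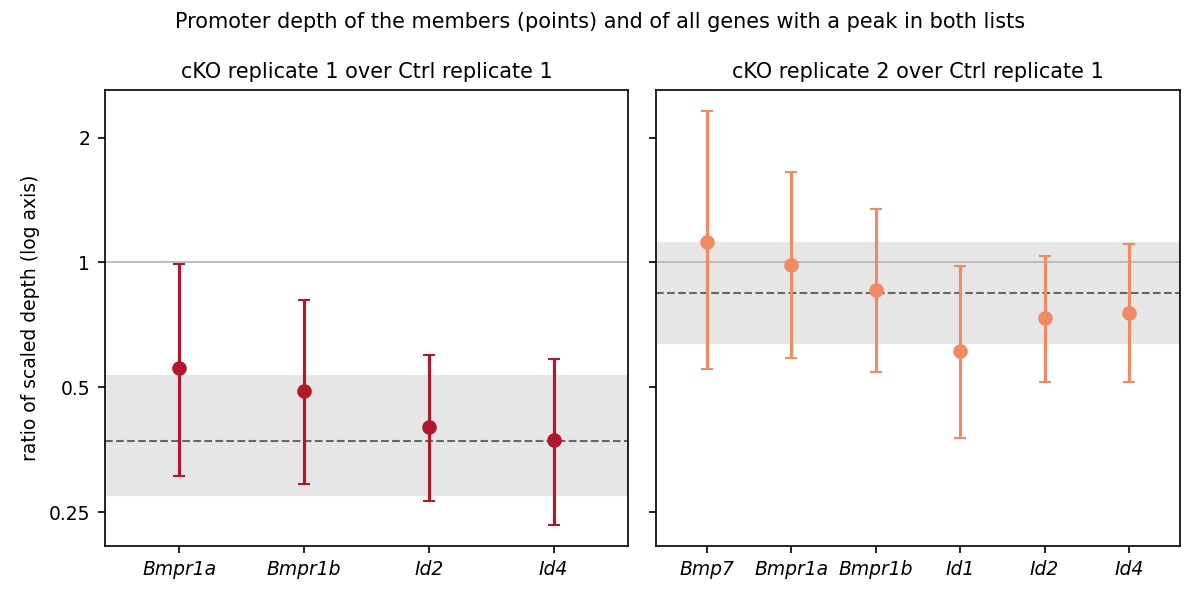
Ratio of scaled depth to Ctrl replicate 1 (vertical log axis) for cKO replicate 1 (left) and cKO replicate 2 (right), with 95% intervals from the fragment counts. The dashed line is the median over all genes with a peak in both lists (0.370 and 0.842) and the grey band the middle 80%. Genes of the set without a peak in both lists have no ratio, and the interval of every other gene crosses the dashed line.

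Beyond promoters, the 10 loci together spanned 1682 kb and held 14, 39, 46 and 3 peaks in cKO replicates 1 and 2 and Ctrl replicates 1 and 2. Pooled over the 10 loci, these were 0.832, 2.32, 2.74 and 0.178 peaks per 100 kb. Pooled over all chromosomes, the lists held 0.785, 1.63, 1.70 and 0.258 peaks per 100 kb. Medians of the densities of single loci were 0.984, 2.31, 2.47 and 0 over all protein-coding genes. For CGI genes these medians were 1.54, 2.84, 2.93 and 0. A median over loci is not the same measure as a pooled density. The mean was 26.5 peaks in cKO and 24.5 in Ctrl, and 26.5 against 46 without Ctrl replicate 2. The peaks merged into 55 regions. Of these, 11 were at the own promoters of the genes, 5 at promoters of other genes, 12 elsewhere in the gene bodies and 27 outside. No peak in the locus was found for 3 and 1 genes in cKO replicates 1 and 2, and for 0 and 7 genes in Ctrl replicates 1 and 2. The corresponding shares of all loci without a peak were 22.8%, 13.3%, 12.9% and 61.8%. All 3 peaks of Ctrl replicate 2 lay away from the promoters of the 10 genes. Both that were not at a promoter, 6.65 kb upstream of Bmp6 and in an intron of Bmpr1b, lay wholly in repeat-masked sequence, and the third was at the promoter of Mcts2 within H13, in the Id1 locus.

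**Figure D4:**
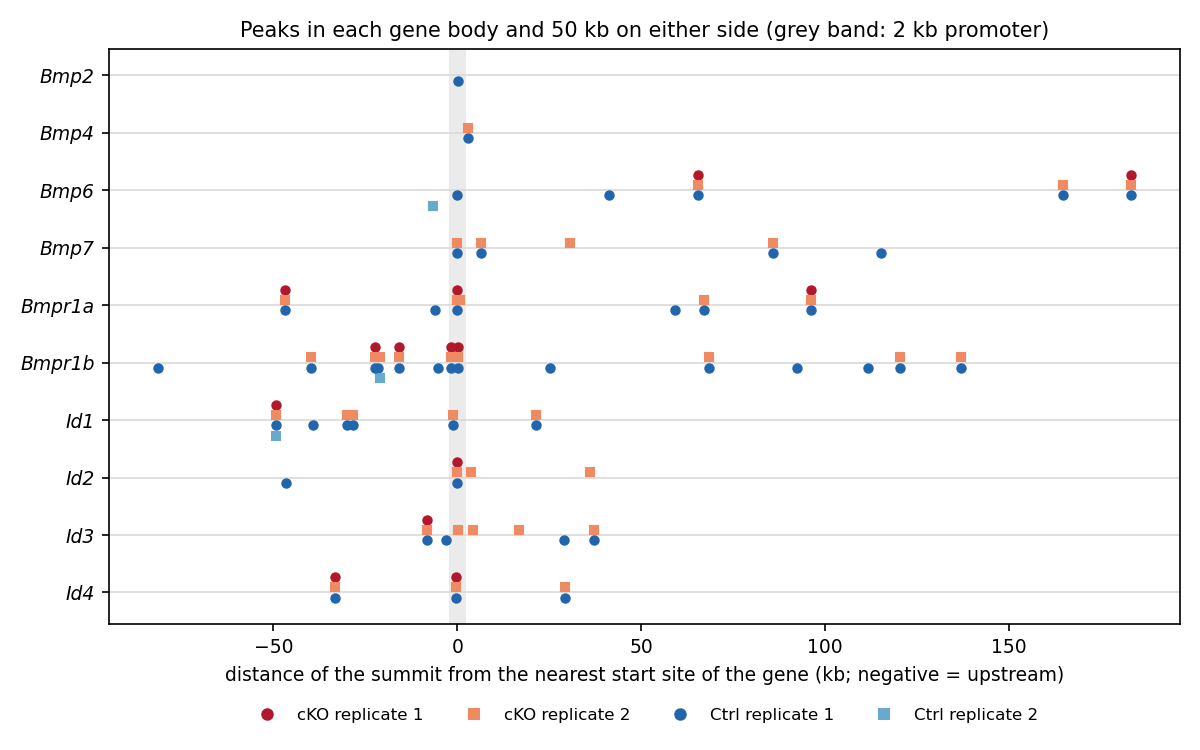
Peak regions in each locus by the distance of the summit from the nearest TSS of the gene (horizontal axis, kb), 1 point per list that holds the region. Bmp2 and Bmp4 have 1 region each, and Bmpr1b, the longest gene, has 15.

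Peaks outside every promoter fell in 39 regions, of which 7 were found in 3 lists. The peaks of cKO replicate 1 outside promoters fell in just these 7 regions, each shared with cKO replicate 2 and Ctrl replicate 1. The Bmp6 intron held one at chr13:38410356-38410883, 65.5 kb after the TSS, with 18, 39 and 33 fragments in cKO replicate 1, cKO replicate 2 and Ctrl replicate 1. At 20.3 times the mean depth in Ctrl replicate 1, against 7.40 at its promoter, it was the stronger site of this ligand gene. The Bmpr1b intron held another at chr3:141997925-141998306, with 16, 43 and 33 fragments, and the intergenic region lay 22.3 kb upstream of Bmpr1b at chr3:142191648-142191859, with 22, 16 and 19 fragments. That upstream region was the only one of the 7 with more fragments in cKO replicate 1 than in the other lists, although its scaled depth (10.6, 8.86 and 11.7 times the mean depth) was highest in Ctrl replicate 1. Id4 had a region 33.3 kb upstream, at chr13:48227768-48228265, with 16, 34 and 42 fragments. Id3 had one 8.23 kb upstream, at chr4:136134756-136135622, with 14, 22 and 25 fragments, so that open chromatin near Id3 was listed in cKO replicate 1 and Ctrl replicate 1 although its promoter was not. The last 2 lay in the Bmpr1a locus. The region at chr14:34363271-34364382 was 96.3 kb after the nearest TSS, the internal one of the transcript Bmpr1a-202. The region at chr14:34548627-34549615, in an intron of Ldb3, was 46.8 kb before the TSS that has the Bmpr1a promoter peak. Bmp7 had no region in 3 lists. Its intronic region at chr2:172933824-172934611, 6.42 kb after the TSS, held 25 fragments in cKO replicate 2 and 21 in Ctrl replicate 1, more than its promoter in both. At Id2, whose promoter was among the strongest of the set, the strongest region outside promoters in Ctrl replicate 1 (chr12:25143516-25143837, 46.5 kb upstream) held 10 fragments and was in no other list. At Id1 the strongest such region by −log10 p lay in an intron of Cox4i2 (chr2:152757489-152757811, 21.4 kb after the TSS). It held 27 fragments in cKO replicate 2 and 21 in Ctrl replicate 1. A region in an exon of H13 (chr2:152705955-152706396) held 22 fragments in Ctrl replicate 1 at a lower −log10 p (10.5 against 14.6).

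SMAD motifs were searched by their letters on both strands. GGCGCC was present in 11.9% of 32851 RefSeq promoter windows (250 bases before to 50 after the start), GTCTAGAC, the SMAD palindrome, in 0.213%, and GNCGNC followed by 5 bases of any kind and GTCT in 0.667%. Windows were matched for 7 of the 10 genes, all but Bmp2, Bmp7 and Id1. GGCGCC was found at Id4, Bmpr1a and Id2, beginning 148, 198 and 231 bases before the start, and not at Bmp4, Bmp6, Bmpr1b or Id3. No window held GTCTAGAC, and the spaced motif was found in the window of Bmp6. In the 401 bases around promoter summits, GGCGCC was present at 32.4% of peaks in Ctrl replicate 1 and 32.1% in cKO replicate 2, and the spaced motif at 1.71% and 1.76%. The upstream Id1 peak held both, each once, with the spaced motif 5 to 8 bases from the summit. Id4 held GGCGCC 58 to 65 bases downstream of its summits. In all, GGCGCC was present around the summits of 5 of 8 genes in Ctrl replicate 1 (Bmp2, Bmpr1a, Id1, Id2 and Id4) and of 4 of 7 in cKO replicate 2 (the same without Bmp2). In cKO replicate 1 it was present at 3 of 4 (Bmpr1a, Id2 and Id4), beside 32.9% of the promoter peaks of that list. It was absent at Bmp6, Bmp7, Bmpr1b and Id3 in every list where these had a promoter peak. The shares given beside these counts are over all promoter windows or peaks and were not matched for CGIs or CG content. A match of letters is not evidence of binding.

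The remaining genes of the pathway gave the context for the set. Of 37 further ligands, receptors, SMADs, antagonists, targets and E protein partners, 15, 22, 27 and 3 had a promoter peak in cKO replicates 1 and 2 and Ctrl replicates 1 and 2, and 10 had none in any list (Bmp5, Bmp8b, Bmp10, Gdf5, Acvrl1, Smad9, Sost, Sostdc1, Cer1 and Msx3). The shares over all protein-coding genes were the 40.3%, 55.9%, 58% and 8.27% given above, and 28 of the 37 were CGI genes. By role, among ligands the counts were 1, 2, 4 and 0 of 8, among receptors 3, 4, 4 and 0 of 5, among SMADs 3, 5, 5 and 0 of 6, among antagonists 5, 6, 9 and 1 of 12, among Msx targets 0, 2, 2 and 0 of 3, and among E protein partners 3, 3, 3 and 2 of 3. Peaks in all 4 lists were found at Bambi, a pseudoreceptor that damps BMP signaling (percentiles of 98.0, 94.8, 95.5 and 92.3), and at the E protein genes Tcf3 (97.7, 98.8, 98.8 and 98.5) and Tcf4 (80.0, 80.7, 76.9 and 91.9). In Ctrl replicate 2 the values of Tcf4 and Bambi were close to 91.7, the lowest that this list allows. Their peaks held 13 and 14 fragments there, at ranks 6860 and 5995 of 7037. The Tcf4 peak of that list also lay at another TSS than the strongest peak of the other lists. Both cKO percentiles lay above both Ctrl percentiles at 7 of the 27 genes with a peak, and the reverse was found at 0, beside 20.5% and 2.8% over all genes tested. They were the type II receptor gene Bmpr2, the type I receptor gene Acvr1, the ligand gene Bmp3, the inhibitory SMAD gene Smad7, the antagonist genes Nog and Twsg1, and the E protein gene Tcf12. Each had a value of 0 in Ctrl replicate 2. Among the highest of them, Acvr1 had 83.5 and 71.8 in cKO against 65.7 in Ctrl replicate 1, and Smad7 had 75.0 and 65.5 against 62.4. The targeted gene Kdm2b had promoter percentiles of 74.9 and 70.7 in cKO and 68.5 and 0 in Ctrl, and its deleted exon was not examined here.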

How the data were processed

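ATAC-seq libraries of P0 hippocampus (2 cKO, 2 Ctrl) were each deposited as 1 peak list. Per the study's methods and the submitters' processing notes, the authors used Cutadapt for trimming and Bowtie2 for alignment to mm10, discarded blacklisted, mitochondrial and duplicate reads, corrected for the Tn5 offset and ran MACS2 2.2.7.1 on paired fragments of each library by itself, without a control. The deposited lists give a score (display value, not used), the fold (a ratio of depth to local background, made by the authors' MACS2), −log10 p, −log10 q and the summit offset. Lists called separately share no threshold, so peaks were ranked by −log10 p within a list.

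Fragments at each summit were recovered from fold and p, and whole numbers matched the deposited −log10 p within 0.01 for at least 99.986% of peaks. The lowest background of a list was taken as its mean depth. TSSs came from the basic set of GENCODE M21 and sequence from GRCm38.p6. The 19114 CGIs were found in unmasked sequence by 3 minimums, a length of 200 bp, a GC content of 50% and a CpG ratio (observed to expected) of 0.6. Percentiles of cKO and Ctrl were compared with the exact two-sided permutation test. All 10 genes were named; the further pathway genes were named where a peak was in all 4 lists or in none, or where groups did not overlap. Regions outside every promoter were named where at least 3 lists overlapped or where they were the strongest of a gene in Ctrl replicate 1; the Bmp4 region and the peaks of Ctrl replicate 2 were described after their values were seen. The genes and lists were chosen with earlier results of these data known. Scripts were tested on simulated data (Python 3.11.15, NumPy 2.4.6, pandas 2.3.3, SciPy 1.17.1, samtools 1.23.1). The alternatives tried are given in the closing section.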

Additional observations from a re-analysis of the deposited data

How the results depend on the processing

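Leaving out Ctrl replicate 2 turned over the 4 totals over genes or peaks that follow and the difference of Bmp7, whereas 8 of the other single-gene differences kept their direction. The number of peaks in the 10 loci also turned over without cKO replicate 2 (-10.5). Leaving out 1 replicate at a time, the difference of cKO minus Ctrl ranged from -2.5 to 5.5 for the number of genes of the set with a promoter peak (1.5 with all libraries), from -11.4 to 40.6 for their mean percentile (14.6), from -19.5 to 23.5 for peaks in the 10 loci (2) and from -8.5 to 15.5 for the wider pathway genes with a promoter peak (3.5). The lowest value came without Ctrl replicate 2 and the highest without Ctrl replicate 1 in each case. The number of genes whose percentiles did not overlap was 2 with all libraries and 4 to 5 without 1 replicate. It was 2 with cKO above and 3 below without Ctrl replicate 2 (23.8% and 36.6% over all genes tested), and 4 above and 0 below without any other (34.5% to 59.6% and 5.15% to 8.86%). It was 1 with a promoter of 1 kb (above; 20.8% above and 2.85% below over all genes tested), 0 with equal-size lists (17.6% and 5.82%) and 4 when genes lacking a peak took their mid-rank (2 with cKO above and 2 below, beside 20.4% and 10.4% over all genes tested). The percentile difference of Bmp7 was 2.31 with all libraries, -5.69 with mid-ranks, and -24.0 to 28.6 without 1 replicate. That of Id1 was -4.18 with all libraries and -41.3 to 32.9 without 1 replicate. Of 108 recomputed differences of the 9 genes other than Bmp4, 94 kept their direction, 5 turned over and 9 fell to 0. Bmp4, at 0 with all libraries, was -7.46 with mid-ranks and 1.17 with the comprehensive transcript set. The other settings (overlap in place of summit, -log10 q of at least 2, no repeat-masked peaks, ranking by scaled depth, the comprehensive transcript set, which was added after seeing the data, and, for the peaks in the loci alone, flanks of 10 or 100 kb) changed no direction of the other 9 genes or of the totals where these were recomputed. Totals were not recomputed with ranking by scaled depth, nor the peaks in the loci with overlap or the comprehensive set.

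Within pairs of the same replicate number (the replicate block) the 4 assignments allow no p below 0.5, and the difference for Bmpr1a stayed 42.2 with p = 0.5 in that exact permutation test. The deviations of same-numbered libraries from their group means had a correlation of -0.37 over 13196 genes. The labels do not say what libraries of 1 number share, and the numbers were not taken to pair them. With the numbers crossed, a pairing added after seeing the data, 0 genes had a p under 0.05, as within the labelled pairs. The alternative of describing scaled depth by the deposited fold was not run between lists, because folds do not share a scale. Depth limits the weakest peaks, since the 13 fragments at Bmp2 and the 12 at Bmp6 leave intervals of 4.27 to 13.7 and 3.82 to 12.9 times the mean depth.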
